A study of Homo sapiens with 7 samples.

Results

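The genes described here encode 10 proteins that Rb is known to work with on chromatin: the histone deacetylases HDAC1, HDAC2 and HDAC3, the histone-binding proteins RBBP4 and RBBP7, the SWI/SNF subunits SMARCA2, SMARCA4 and ARID1A, the histone demethylase KDM5A and the histone methyltransferase SUV39H1. They were chosen by name from 19970 protein-coding genes on chromosomes 1 to 22 and X, with no measured value in the rule. Earlier results of these data were known when the choice was made. The question was whether Rb itself was found at the promoters of these genes, and whether this differed between DMSO and palbociclib.

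Rb chromatin binding was measured by CUT&RUN, in which an antibody directs a nuclease to cut out the DNA around a bound protein. All 7 libraries came from the established breast cancer line ZR-75-1, which is oestrogen receptor-positive. Unedited (parental) cells were treated for 4 days with DMSO (2 libraries) or with 500 nM palbociclib, an inhibitor of the kinases CDK4 and CDK6 (2 libraries). RB1 KO cells, which per the study's methods were expanded from single Cas9-edited cells, gave 1 library with DMSO and 1 with palbociclib, so clone and genotype cannot be told apart. All 6 of these libraries used the same Rb antibody. The seventh library used IgG2a, an antibody without a specific target, on parental cells treated with palbociclib for 4 days.

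Rb without phosphate groups binds E2F transcription factors at promoters and recruits corepressors, and CDK4 and CDK6 release it by phosphorylation. HDAC1 and HDAC2 are the catalytic subunits of the NuRD, SIN3 and CoREST complexes, which remove acetyl groups from histones, and RBBP4 and RBBP7 are histone-binding subunits of NuRD and SIN3. SMARCA2 and SMARCA4 are the alternative ATPases of the SWI/SNF nucleosome remodellers. A peak here marks Rb at the gene that encodes such a protein and says nothing of where that protein was bound.

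A promoter was taken as 2000 bp upstream to 500 bp downstream of any transcription start site (TSS) that GENCODE 44 gives for the gene, in the hg38 build. The peaks and their fold enrichments, the ratio of fragment pileup at the summit to local background, were those called by the authors. Parental cells gave 996 and 816 peaks in the DMSO replicates, and 8399 and 8256 in those treated with palbociclib. The RB1 KO lists held 65 and 51 peaks, of which only 4 and 5 lay on chromosomes 1 to 22 and X. The IgG2a list held 2648 peaks, 1724 of them on these chromosomes. The depth of each library is unknown here, since the lists give no totals and the study's methods give only a range over samples, in clusters per sample. The lowest background values in the parental lists, which reflect average coverage of the genome, ranged from 0.465 to 0.571 fragments per position.

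In parental cells with palbociclib, promoter peaks were called at HDAC2, RBBP4, RBBP7, SMARCA2, SMARCA4 and SUV39H1 in both libraries. HDAC3 had a peak in replicate 2 only, and HDAC1, ARID1A and KDM5A had none in either. With DMSO, no member had a promoter peak in either library. In the RB1 KO lists no member had one, and the IgG2a list had 1, a weak peak at a distal SMARCA2 start. At the members with peaks the mean fold enrichment ran from 4.99 at HDAC2 to 13.5 at SMARCA2.

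**Figure D1:**
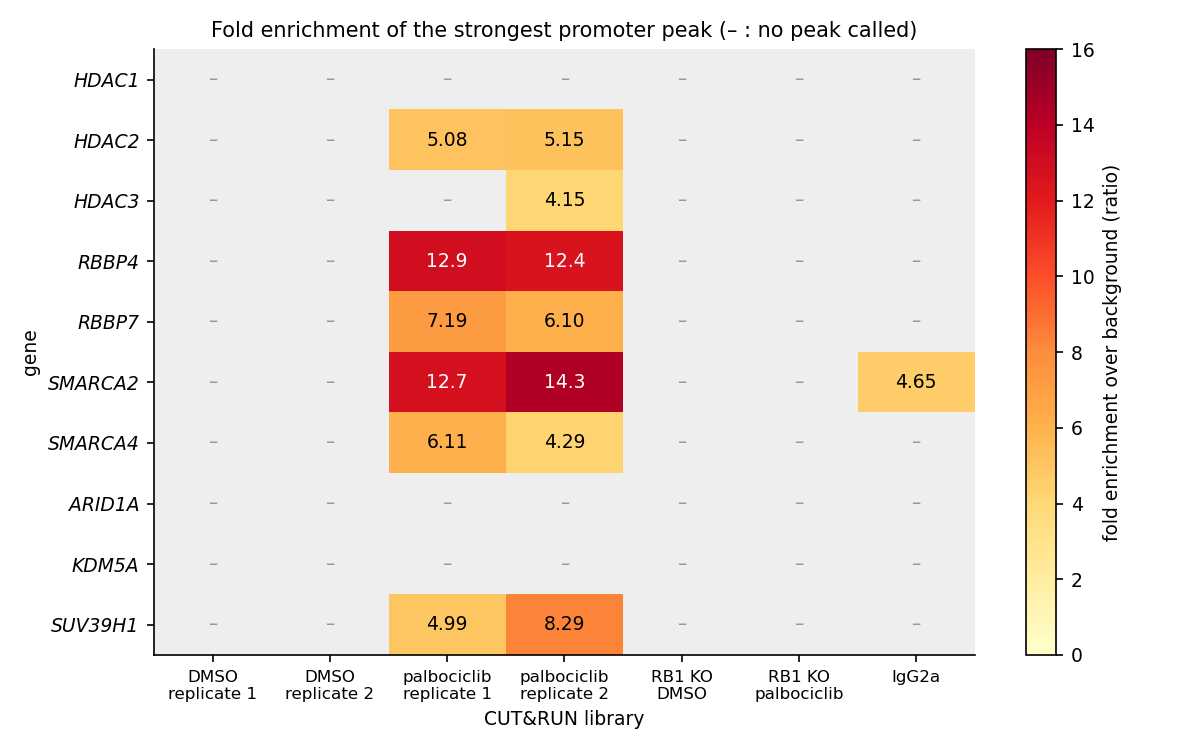
Fold enrichment (a ratio) of the strongest promoter peak of each gene (rows) in each of the 7 libraries (columns), with a dash where no peak was called. The 2 palbociclib columns hold 6 and 7 values between 4.15 and 14.3, the DMSO and RB1 KO columns hold none, and IgG2a holds 1.

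Sequences from the members' shared peaks are shown first. Each is the stretch nearest the summit that lies within the peaks of both palbociclib libraries and outside all annotated exons, at most 150 bases long, read 5′ to 3′ on the strand of the gene from hg38. They come from chr1:32650999-32651141 (plus strand) for RBBP4, chrX:16870363-16870512 (minus strand) for RBBP7, chr9:2015036-2015185 and chr9:2016452-2016601 (plus strand) for SMARCA2, chr19:10960819-10960931 (plus strand) for SMARCA4 and chrX:48696586-48696733 (plus strand) for SUV39H1. All but the downstream SMARCA2 stretch end 1 base before an annotated TSS. This end follows from leaving out exons and does not place the peak. The stronger summit lay past the end of the stretch at RBBP4, RBBP7, SMARCA4 and the upstream SMARCA2 peak. The shared HDAC2 peak gave no such stretch long enough to show. Capitals mark GGGCGG, the GC box bound by SP and KLF factors, and CCAAT, the box bound by NFY, on either strand. CCAAT reads ATTGG and GGGCGG reads CCGCCC where the match is on the opposite strand.
RBBP4: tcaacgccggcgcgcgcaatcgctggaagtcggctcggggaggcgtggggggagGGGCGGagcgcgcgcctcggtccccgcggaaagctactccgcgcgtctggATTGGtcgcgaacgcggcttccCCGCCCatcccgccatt
RBBP7: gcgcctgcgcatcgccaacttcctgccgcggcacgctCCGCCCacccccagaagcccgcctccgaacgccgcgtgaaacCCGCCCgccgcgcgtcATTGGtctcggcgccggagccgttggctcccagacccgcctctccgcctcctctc
SMARCA2 upstream peak: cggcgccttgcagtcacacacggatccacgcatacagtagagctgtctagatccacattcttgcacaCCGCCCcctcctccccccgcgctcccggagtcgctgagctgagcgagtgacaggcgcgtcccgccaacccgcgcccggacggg
SMARCA2 downstream peak: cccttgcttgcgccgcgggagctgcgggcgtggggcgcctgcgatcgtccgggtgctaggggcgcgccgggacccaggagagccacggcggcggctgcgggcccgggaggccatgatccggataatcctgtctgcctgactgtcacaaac
SMARCA4: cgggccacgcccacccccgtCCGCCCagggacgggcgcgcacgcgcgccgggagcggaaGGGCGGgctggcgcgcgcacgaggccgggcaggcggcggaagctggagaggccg
SUV39H1: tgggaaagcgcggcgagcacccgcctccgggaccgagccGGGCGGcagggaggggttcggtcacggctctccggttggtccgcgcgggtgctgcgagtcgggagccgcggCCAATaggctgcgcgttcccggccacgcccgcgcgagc

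HDAC2 was the only member with an E2F match within 100 bp of a palbociclib summit. It lay at chr6:113970882-113970889, 52 bp from the summit of a replicate 2 peak at chr6:113970899-113971092 and so just outside that peak's edge. It is shown in capitals in chr6:113970871-113970900, on the minus strand, which is that of the gene.
HDAC2: cagtcaaggagGCGGCAAAaaaaaagtctg

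Per library, no member had a promoter peak in either DMSO library, while 6 had one in palbociclib replicate 1 and 7 in replicate 2, and the groups did not overlap. Among all protein-coding genes, 5.22% and 4.28% had a promoter peak in the DMSO libraries, and 39.6% and 39.0% in the palbociclib libraries. The mean number was 6.5 ± 0.707 (SD, n = 2) with palbociclib, and the difference from DMSO was 6.5. An exact permutation test (two-sided) gave p = 0.333, the smallest value that 2 libraries against 2 can give. The study describes the replicates of each treatment as separate biological replicates of an experiment run once.

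In both palbociclib libraries, 6 of the 10 members had overlapping promoter peaks, against 34.4% of all genes. None did in both DMSO libraries, against 2.82% of all genes. All 6 were gained, meaning that the peak overlapped none in either DMSO library, against 27.8% of all genes. No member had a promoter peak in an RB1 KO library, where the share over all genes was 0.0100%, or 2 genes. When a −log10 q or a fold enrichment of at least 5 was required, 3 of the 6 remained, namely RBBP4, RBBP7 and SMARCA2, against 26.8% and 26.9% of all genes. With only 10 genes, a single call more or fewer moves the members' share widely, so the members' gains are read only as part of gains at 5550 promoters.

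Among the deacetylase genes, HDAC2 was the member with peaks in both palbociclib libraries. HDAC2 (ENSG00000196591, chr6:113933028-114011308, minus strand) had a fold enrichment of 5.08 in replicate 1, at chr6:113971046-113971497. In replicate 2 it had 2 shorter peaks with fold enrichments of 5.15 and 4.90, at chr6:113970536-113970727 and chr6:113970899-113971092. Only the last of these overlapped the replicate 1 peak, so the libraries differed in where the signal peaked. The summits lay 145 bp upstream of the nearest HDAC2 start in replicate 1 and 55 bp downstream and 60 bp upstream in replicate 2. The replicate 1 peak also held the start of HDAC2-AS2, a long non-coding RNA that runs the other way from 347 bp upstream of the canonical HDAC2 start, so this peak cannot be given to HDAC2 alone.

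HDAC3, the catalytic subunit of the NCoR complex (ENSG00000171720, chr5:141620876-141636849, minus strand), had a single peak, in palbociclib replicate 2, at chr5:141636933-141637205. Its fold enrichment was 4.15, its summit was 262 bp upstream of the HDAC3 start, and its nearer edge was 84 bp from that start. The start of RELL2, a divergent gene 101 bp away, lay within the peak. In replicate 1 the closest peak to an HDAC3 start was 6788 bp away, over a start of DIAPH1. HDAC3 was thus called in 1 of the 2 libraries only.

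HDAC1 (ENSG00000116478, chr1:32292083-32333635, plus strand) had no promoter peak in any library. The palbociclib peaks nearest to an HDAC1 start were 4496 bp from it in replicate 1 and 19689 bp in replicate 2, both past the 3′ end of the gene, and they were different peaks. HDAC1 and HDAC2 encode closely related enzymes, but only HDAC2 had a called peak, and its pileup was near the limit of calling.

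RBBP4 (ENSG00000162521, chr1:32651142-32686211, plus strand) had one of the strongest peaks of the group. Its fold enrichment was 12.9 at chr1:32650999-32651654 in palbociclib replicate 1 and 12.4 at chr1:32650647-32651702 in replicate 2. The mean was 12.7 ± 0.331 (SD, n = 2). The libraries were close, and both summits fell at the TSS, 8 bp upstream in replicate 1 and 3 bp downstream in replicate 2. The wider replicate 2 peak also covered the start of ZBTB8OS, which is 305 bp upstream of the canonical RBBP4 start on the other strand.

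RBBP7, the paralogue of RBBP4 (ENSG00000102054, chrX:16839283-16870362, minus strand), had fold enrichments of 7.19 in replicate 1 at chrX:16869718-16870603 and 6.10 in replicate 2 at chrX:16869538-16870551. The mean was 6.65 ± 0.769 (SD, n = 2), below RBBP4 in each library. Its summits were 8 bp and 75 bp downstream of the nearest start. No start of another gene lay in these peaks.

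SMARCA2 (ENSG00000080503, chr9:1980290-2193624, plus strand) was the only member with a pair of separate promoter peaks in both palbociclib libraries. The upstream peak, at chr9:2014771-2015566 in replicate 1 and chr9:2014876-2015632 in replicate 2, had fold enrichments of 9.94 and 7.77. The downstream peak, at chr9:2015850-2017502 and chr9:2015831-2017113, had fold enrichments of 12.7 and 14.3. Both upstream summits fell on the same base, 160 bp upstream of the canonical start and 1 bp into another annotated transcript. The downstream summits lay 1577 bp and 1180 bp past the canonical start, in the intron of the canonical transcript, and 163 bp upstream and 157 bp downstream of the nearest start of any SMARCA2 transcript. The downstream peak was the wider one in each library, at 1653 bp and 1283 bp against 796 bp and 757 bp.

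The upstream SMARCA2 peaks had pileups of 33 and 27 fragments over local backgrounds of 2.42 and 2.61, whereas the downstream peaks had 24 and 28 fragments over 0.969 and 1.02. The higher fold enrichment of the downstream peak thus went with a lower background in each library, and in replicate 1 with a lower pileup. SMARCA2 has 72 annotated transcripts with 66 distinct starts, and its promoter windows covered 50801 bp, the most of any member. Longer windows leave more room for a peak, and the part of this in the call was not tested.

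**Figure D2:**
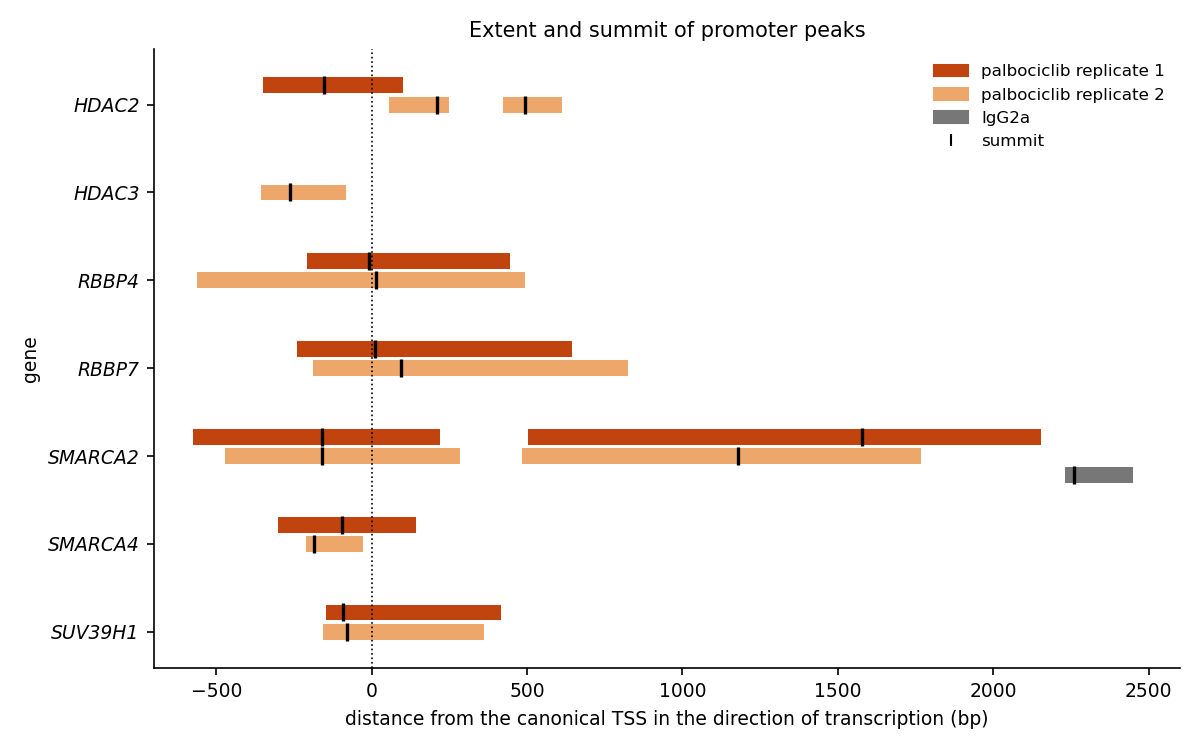
Extent (bars) and summit (black ticks) of every promoter peak of the 7 genes that had one, in bp from the canonical TSS in the direction of transcription, coloured by library. The SUV39H1 peaks lie alike in both palbociclib libraries, and SMARCA2 has 2 separate peaks in each. The IgG2a peak of SMARCA2 begins 2232 bp past the canonical TSS, just beyond the palbociclib peaks, of which the replicate 1 peak ends at 2155 bp.

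SMARCA4, the other SWI/SNF ATPase (ENSG00000127616, chr19:10960932-11079426, plus strand), had a fold enrichment of 6.11 at chr19:10960728-10961173 in palbociclib replicate 1 and 4.29 at chr19:10960819-10961002 in replicate 2. The mean of 5.20 ± 1.29 (SD, n = 2) was below that of SMARCA2, and each SMARCA4 value was below every SMARCA2 value. The summits lay 1 bp into the gene in replicate 1 and 87 bp upstream in replicate 2. SMARCA4 has 55 transcripts with 47 distinct starts and 44059 bp of promoter windows, nearly as many as SMARCA2, but a single peak at its first start.

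ARID1A, the DNA-binding subunit of the BAF form of SWI/SNF (ENSG00000117713, chr1:26693236-26782104, plus strand), had no promoter peak in any library. The closest palbociclib peaks were 9814 bp and 9577 bp from an ARID1A start, and lay over a start of PIGV with fold enrichments of 11.3 and 12.9. The SWI/SNF members thus had 2 shared peaks (SMARCA2), 1 (SMARCA4) and none (ARID1A).

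KDM5A, which removes methyl groups from lysine 4 of histone H3 and was first isolated as an Rb-binding protein (ENSG00000073614, chr12:280057-389320, minus strand), was the member farthest from a palbociclib peak. The nearest palbociclib peaks were 180719 bp and 180989 bp from a KDM5A start. Its promoter is shared with CCDC77, whose start is 28 bp away on the other strand, and no Rb peak covered this pair of starts in any library.

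SUV39H1, which methylates lysine 9 of histone H3 (ENSG00000101945, chrX:48695554-48709016, plus strand), had a fold enrichment of 4.99 at chrX:48696586-48697149 in palbociclib replicate 1 and 8.29 at chrX:48696576-48697096 in replicate 2. The larger value was 1.66 times the smaller, the widest gap between replicates among the 6 members. The position was steady all the same, with summits 91 bp and 79 bp upstream of the start.

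The mean fold enrichment in palbociclib thus ordered the members as SMARCA2 (13.5), RBBP4 (12.7), RBBP7 (6.65), SUV39H1 (6.64), SMARCA4 (5.20) and HDAC2 (4.99). SMARCA2 counts here with its downstream peak. Its upstream peak, nearer the canonical start, had 9.94 and 7.77, below RBBP4 in each library. The values ranked for SMARCA2 and RBBP4 were 12.7 and 14.3 against 12.9 and 12.4, so their ranges overlapped. Those of RBBP7, SUV39H1 and SMARCA4 also overlapped with a neighbour, and HDAC2 lay within the range of SMARCA4. Between RBBP4 and RBBP7 the ranges were apart. In this and in the comparison with all genes, the peaks overlapping between libraries were used, so HDAC2 counts with 5.08 and 4.90, or 4.99 ± 0.129 (SD, n = 2).

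Among the 6867 genes with overlapping promoter peaks in both palbociclib libraries, the median of this mean was 8.46, with quartiles of 6.05 and 13.0. The median over the 6 members was 6.64. SMARCA2 stood at the 76.8th percentile by its downstream peak and RBBP4 at the 73.7th, so they were in the upper part without being at the top. The upstream SMARCA2 peak, at 9.94 and 7.77, had values on either side of the median over all genes. RBBP7 (31.9th), SUV39H1 (31.8th), SMARCA4 (14.0th) and HDAC2 (11.8th) were in the lower part. The ratio of the larger to the smaller replicate value had a median of 1.21 over all genes and a 90th percentile of 1.61. It was 1.04 for HDAC2 and RBBP4, 1.13 for SMARCA2, 1.18 for RBBP7 and 1.42 for SMARCA4, so that only SUV39H1 passed that percentile.

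**Figure D3:**
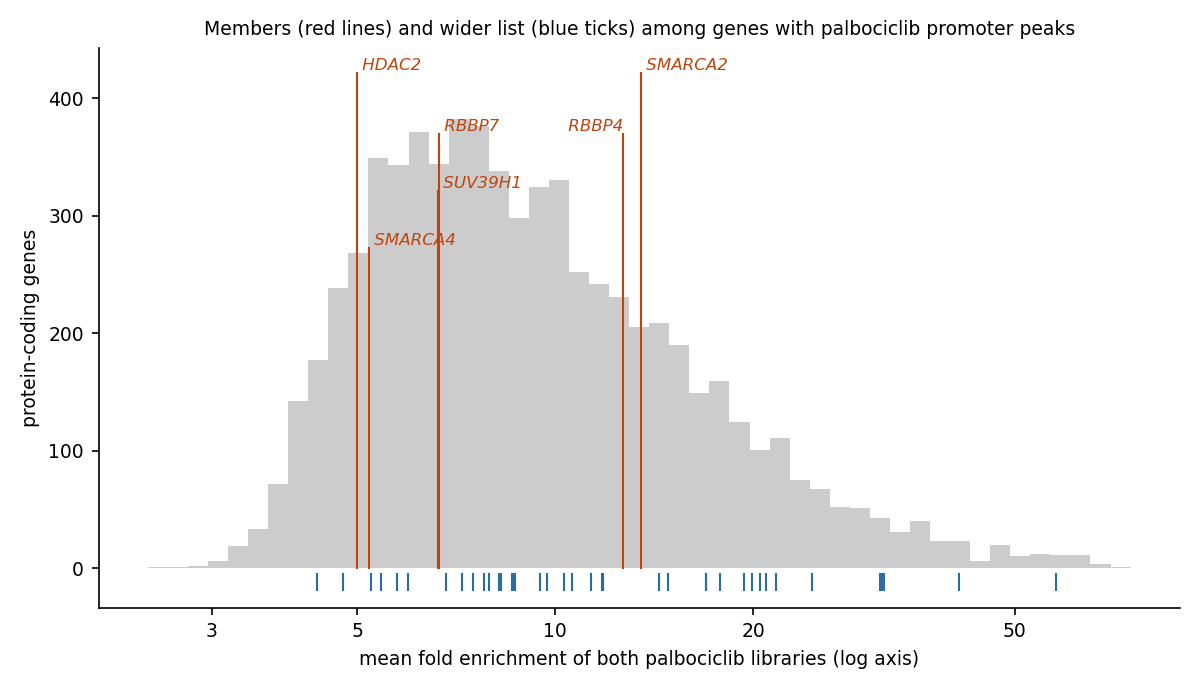
Number of protein-coding genes by mean fold enrichment over both palbociclib libraries (log axis), for the 6867 genes with overlapping promoter peaks in both. Red lines mark the 6 members and blue ticks the 40 genes of a wider list of corepressor and remodeller genes. HDAC2 and SMARCA4 stand in the lower tail, and SMARCA2 (by its downstream peak) and RBBP4 above the median of 8.46.

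By significance, the members' peaks were spread through the palbociclib lists. RBBP4 ranked 1589 of 8399 peaks in replicate 1 and 1667 of 8256 in replicate 2 by −log10 q. The highest rank of any member was 1583, for the downstream SMARCA2 peak in replicate 2. HDAC2 was near the end, at 6702 in replicate 1 and at best 6425 in replicate 2, and the HDAC3 peak ranked 7262. The DMSO lists held fewer peaks than the rank of any member peak. In lists limited to the strongest 816 peaks each, no member was called with either treatment, while 3.82% of all genes were called in both palbociclib libraries and 2.62% in both DMSO libraries.

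The pileup behind each peak was recovered from the deposited values as a whole number of fragments. RBBP4 had 31 fragments in each palbociclib library, with an exact 95% Poisson interval of 21.1 to 44.0. RBBP7 had 20 and 21. SMARCA4 had 14 and 10, SUV39H1 11 and 19, HDAC2 9 in each of its peaks, and HDAC3 10. These intervals cover counting error only.

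The lists did not share a limit on the p-value. The weakest peak called had a −log10 p of 5.23 and 5.33 in the DMSO lists but of 4.15 in each palbociclib list, so a DMSO peak had to be stronger to be listed. At the stricter DMSO limit, and if the background in DMSO were that of the palbociclib library, 9 and 10 fragments would have sufficed at RBBP4, 11 and 12 at RBBP7, and between 8 and 12 at the SMARCA2 peaks. The lower ends of the intervals at RBBP4, RBBP7 and SMARCA2 all lay above these limits. At HDAC2, HDAC3 and SMARCA4 they did not, in either library, and at SUV39H1 they did so in replicate 2 only, where 19 fragments (11.4 to 29.7) stood against 9 needed. At these 4 genes a lower signal in DMSO therefore cannot be read from the missing call at these pileups. At RBBP7 the margin was narrow, with lower ends of 12.2 and 13.0. The limits leave out counting error in the DMSO libraries, whose depth is unknown. Clearing them at RBBP4, RBBP7 and SMARCA2 thus does not by itself establish a lower signal in DMSO. All 6 gained members still had peaks in both palbociclib libraries when the DMSO limit of 5.33 was applied to every list.

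**Figure D4:**
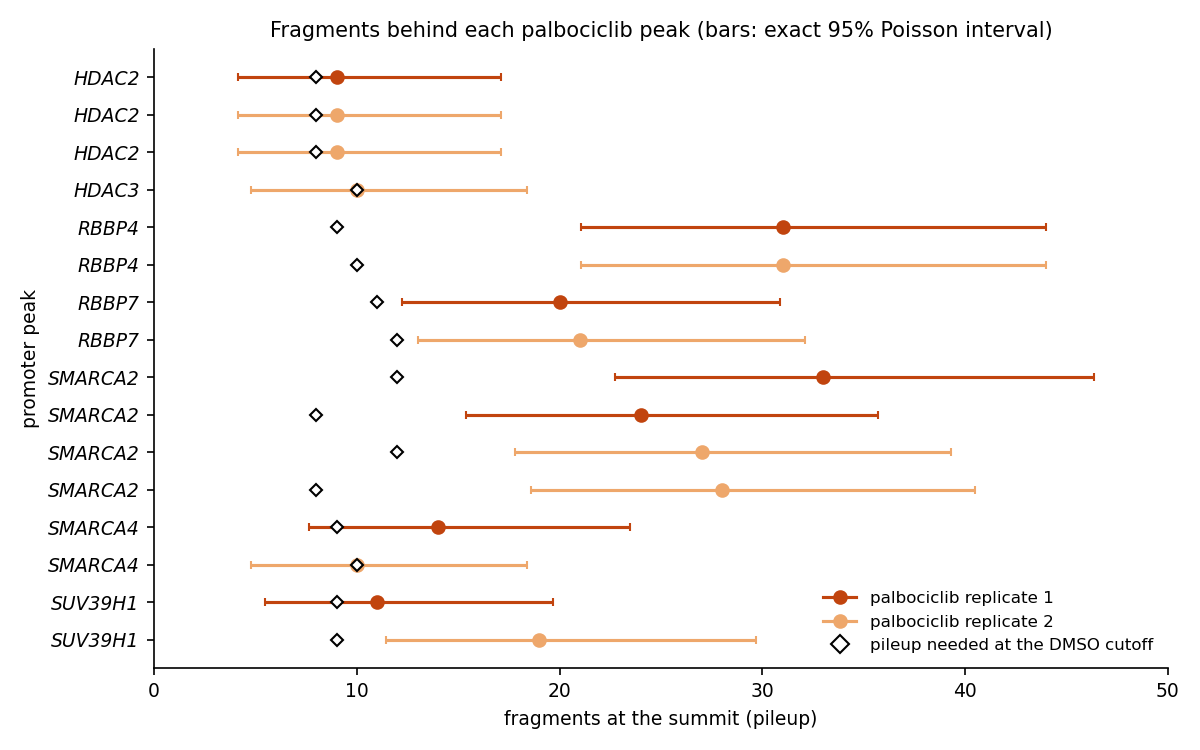
Fragments at the summit of each palbociclib promoter peak (circles) with exact 95% Poisson intervals (bars), and the pileup needed for a call at the stricter DMSO limit over the same background (diamonds). The bars of RBBP4, RBBP7 and SMARCA2 clear the diamonds, and those of HDAC2, HDAC3 and SMARCA4 span them.

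In the IgG2a list 1 member, SMARCA2, had a promoter peak, against 1.95% of all genes. It lay at chr9:2017579-2017796, with a fold enrichment of 4.65 from 6 fragments, and overlapped neither SMARCA2 peak of the palbociclib libraries. Its summit was 2259 bp past the canonical start and 20 bp past the start of another transcript. It began 2232 bp past the canonical start, just beyond the downstream peak of palbociclib replicate 1, which ended at 2155 bp. No IgG2a peak thus overlapped an Rb peak of a member. Since the Rb peaks were called against matched IgG, this is not an independent check of them.

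Inside the genes but outside the promoter windows, no member had a peak in both palbociclib libraries, and 2.93% of all genes did. The IgG2a list held 1 such peak among the members, in an intron of SMARCA4 at chr19:10977792-10977947 with a fold enrichment of 5.38 from 7 fragments, and 2.70% of all genes had one.

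The members' promoter peaks with palbociclib had a median width of 656 bp in replicate 1 (7 peaks) and 521 bp in replicate 2 (9 peaks), against 483 bp and 470 bp for promoter peaks of all genes. They ranged from 184 bp at SMARCA4 in replicate 2 to 1653 bp at the downstream SMARCA2 peak. The median distance from summit to the nearest start of the gene was 8 bp and 75 bp, against 89 bp in each library over all genes. Every member summit was within 262 bp of a start. Over all genes, 95.1% of promoter peaks in each palbociclib library had a summit within 500 bp of a start. With many annotated starts at SMARCA2 and SMARCA4, a short distance is easier to reach there.

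The motifs searched, on both strands and within 100 bp of the strongest shared summit, were E2F (TTTCCCGC, TTTCGCGC, TTTGCCGC or TTTGGCGC), the cell cycle homology element CHR (TTTGAA), CRE (TGACGTCA), an ETS site (CCGGAAGT), the NRF1 core (GCATGCGC), the NFY box and the GC box. At the 6 members with shared peaks, the GC box was found in 4 and the NFY box in 3, namely RBBP4, RBBP7 and SUV39H1. Over 5702 such windows of all genes, the shares were 70.4% and 26.4%. The E2F letters were in none of the 6 windows and in 6.03% of all, and the HDAC2 match shown above was found at the weaker of the replicate summits. CHR, CRE, ETS and NRF1 letters were in none, against 3.24%, 1.19%, 3.23% and 3.26% of all windows. A missing match says only that these letters were not in the window.

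In the 300 bases around each canonical start (250 before and 50 after), the GC box was present in 9 of the 10 members, HDAC2 being the exception, against 61.3% of 19970 promoters. The NFY box was present in HDAC1, RBBP4, RBBP7 and SUV39H1, against 36.0%. The only ETS match was at KDM5A, against 6.15%, and no member had an E2F (4.37%), CHR (11.5%), CRE (2.69%) or NRF1 (4.25%) match. HDAC1 and KDM5A, without peaks, thus had matches as well.

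The ratio of observed to expected CpG in these 300 bases was 1.17 at SMARCA4, 1.13 at RBBP4, 1.08 at SUV39H1, 1.03 at RBBP7, 0.901 at SMARCA2 and 0.801 at HDAC2. In the members without peaks in both libraries it was 0.786 at ARID1A, 0.765 at HDAC3, 0.741 at KDM5A and 0.690 at HDAC1. The downstream SMARCA2 peak lay outside these 300 bases. All 6 members with peaks in both libraries were above the other 4. The gap between HDAC2 and ARID1A was narrow, and HDAC3 had a peak in replicate 2. This order rests on the calls as deposited: at a −log10 q or fold enrichment of at least 5, SMARCA4 and SUV39H1 were no longer called in both libraries yet lay above SMARCA2, which was. Over all genes the median ratio was 0.882 with such peaks and 0.655 without, and the members were ordered as these medians were, with no test made. GC content did not order them in this way, since ARID1A had 78.0% and HDAC2 64.0%.

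**Figure D5:**
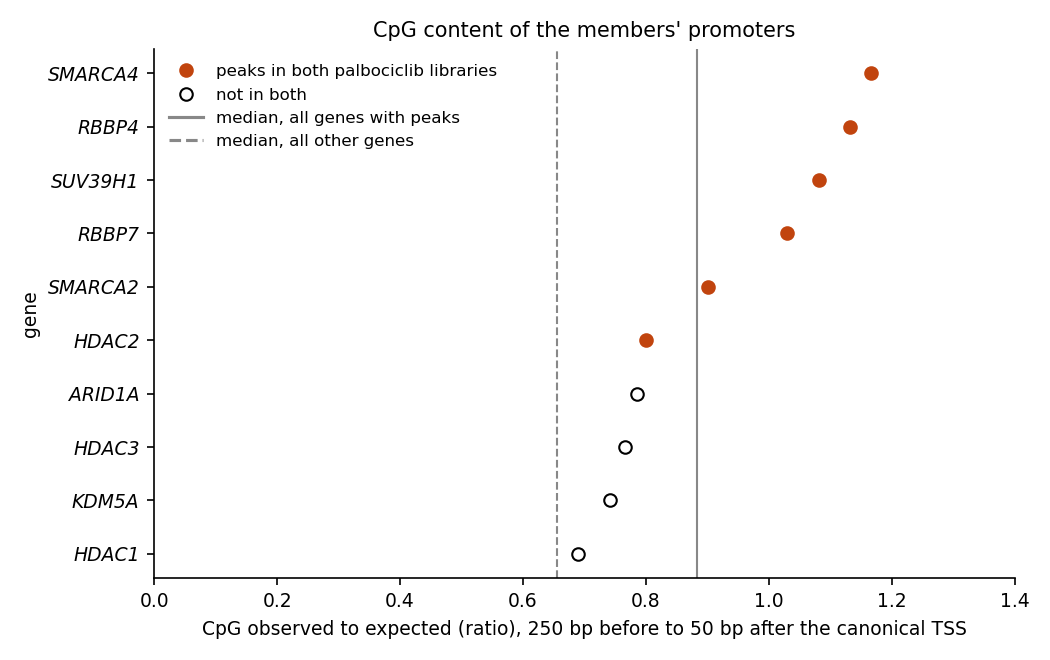
Observed to expected CpG ratio of the 300 bases around the canonical TSS of each member, with filled points for the 6 genes that had peaks in both palbociclib libraries and open points for the other 4. Grey lines give the medians of all genes with such peaks (0.882, solid) and without (0.655, dashed).

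The wider list held 65 other genes of the same complexes and marks, also chosen with earlier results of these data known. Of these, 40 (61.5%) had overlapping promoter peaks in both palbociclib libraries, 29 (44.6%) of them gained, against 6 of 10 members and the shares of all genes given above. In both DMSO libraries 5 genes of the list (7.69%) had promoter peaks, and 6 more had a peak in 1. The difference from the 0 of 10 members was not tested. The median of the mean fold enrichment over the 40 genes was 10.5, against 6.64 for the members.

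The 5 genes called with DMSO were SIN3A, the scaffold of the SIN3 complex, its subunit ING2, GATAD2A of NuRD, ACTL6A of SWI/SNF and CBX5, which encodes a heterochromatin protein that binds the mark made by SUV39H1. They were also the 5 genes of the list with the highest mean fold enrichment with palbociclib. SIN3A had fold enrichments of 14.5 and 13.2 in the DMSO libraries, and palbociclib gave 49.8 and 65.9. GATAD2A had 6.29 and 11.2 with DMSO and 40.8 and 41.6 with palbociclib. CBX5 had 5.10 and 6.95, then 36.4 and 26.9, ING2 6.98 and 9.27, then 30.5 and 32.3, and ACTL6A 5.62 and 6.38, then 35.9 and 26.5. In each of the 5 both palbociclib values were above both DMSO values. How many of all genes called with both treatments did the same was not computed, so this is not read as particular to the 5. Their palbociclib values exceeded every one of the 10 members, but they are the top 5 of a list of 65. With 2 libraries a group, no exact permutation test of such a difference can go below p = 0.333.

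Over all genes, 34.4% had overlapping promoter peaks in both palbociclib libraries. The groups below are small, and none was tested against that share. By complex, 8 of 9 NuRD genes, 9 of 15 SWI/SNF genes and 7 of 11 SIN3 genes of the list had peaks in both palbociclib libraries. So did 5 of 8 other deacetylase genes, 6 of 10 genes for histone methylation and its readers, 3 of 7 CoREST and NCoR genes and 2 of 3 other genes with RBBP names. Neither of the 2 KDM5A relatives, KDM5B and KDM5C, did. SUV39H2, the paralogue of SUV39H1, did, with fold enrichments of 8.77 and 7.77. No gene of the list had a promoter peak in an RB1 KO library, where 0.0100% of all genes did. In IgG2a 3 had one (4.62%, against 1.95% of all genes), namely ARID1B (6.57), PHF10 (4.51) and CBX1 (4.34).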

How the data were processed

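The data were 7 peak lists, 1 per library. After read trimming and alignment to the hg38 build (Bowtie2 2.3.4.1), the authors called the peaks of every library on their own using MACS2 2.2.7.1 on read pairs, against matched IgG and at q of 0.05. The control behind the IgG2a list is not given in the sources used here. The deposited columns are a score, the fold enrichment (a ratio of pileup to local background, each with 1 added), the −log10 p-value and the −log10 q-value. The authors' peaks were used as they stand and replicates were not pooled. A list with fewer calls gives fewer chances of overlap, and a fold enrichment can be compared only where a peak was called.

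Groups were taken from sample titles. The members, the wider list and the motifs were chosen with earlier results of these data known. All 10 members are named. Of the wider list, genes are named that had a promoter peak in both DMSO libraries, that were among the 5 with the highest mean fold enrichment with palbociclib, or that had a promoter peak in an RB1 KO or IgG2a library; paralogues of KDM5A and SUV39H1 were named after their values were seen, and other genes where a member's peak covered their start or lay nearest. Promoters used every GENCODE 44 transcript, and peaks were shared when they overlapped by 1 bp or more. No peak passed the end of a hg38 chromosome, and contigs were left out. Pileups were recovered from the fold enrichment and −log10 p-value under MACS2's Poisson model, and the −log10 p recomputed from them differed from the deposited value by at most 0.00551. Recovery and overlap code was tested on simulated data. The number of members per library was tested by an exact permutation test (SciPy), and no test of fold enrichment between treatments could be made, since no member was called in all 4 parental lists. Stricter q and fold limits, other windows and overlaps, equal list lengths, a common p limit and leaving out each library were tried.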

Additional observations from a re-analysis of the deposited data

How the results depend on the processing

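With −log10 q of at least 5, the members with peaks in both palbociclib libraries fell from 6 to 3 (RBBP4, RBBP7 and SMARCA2), all 3 gained, against 26.8% of all genes. With a fold enrichment of at least 5, the same 3 genes remained, all 3 gained, against 26.9% of all genes. The SMARCA2 peak in IgG2a was lost under each of these limits, leaving 0. The q limit also moved the median width from 610 to 841 bp and the median summit distance from 67.5 to 8 bp. Without palbociclib replicate 2 that distance was 8 bp and without replicate 1 it was 75 bp. With lists of equal length (816 peaks), 0 members had peaks in both palbociclib libraries, 0 were gained, the difference in number between treatments was 0 (exact permutation p = 1), and the wider list fell from 40 to 11 genes. The other 73 of 86 alternative values were counted as unchanged. For medians this meant within the spread between libraries, and for counts within 1.5 times. For the difference in number between treatments it meant only that the sign was kept, and with −log10 q of at least 5 that difference was 4. The unchanged values included the common p limit, chosen after the data were seen. They also included a 50% reciprocal overlap, which left 4 members (without HDAC2 and SMARCA4). Leaving out a library kept the difference in number between 6 and 7. With a replicate block (paired exact sign permutation) the difference was 6.5 with p = 0.5. Same-numbered libraries deviated together only weakly (r = 0.0602 over 506 regions called in all 4 lists). The titles give only the number, and this value cannot tell whether such libraries were handled together. No fold change could be tested, since no member was called in all 4 parental lists, and the missing DMSO calls at HDAC2, HDAC3, SMARCA4 and SUV39H1 do not by themselves show a lower signal there. At RBBP7 the margin was narrow, and for every member the depth of the DMSO libraries is unknown.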
